A study of Homo sapiens with 4 samples.

Results

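The clustered histone genes are the genes for the core histones H2A, H2B, H3 and H4 and the linker histone H1 that lie in the HIST1, HIST2, HIST3 and HIST4 clusters. They were chosen by name, as the 71 of 19475 gene symbols in the data that begin with HIST1H, HIST2H, HIST3H or HIST4H. They comprise 6 H1, 17 H2A, 18 H2B, 15 H3 and 15 H4 genes, of which 55 lie in HIST1, 12 in HIST2, 3 in HIST3 and 1 in HIST4. The RNA came from SKOV3 cells, a long-established line of human ovarian cancer. There were 2 libraries of cells on a tissue culture plate (TCP), placed at day 0 by the sample labels, and 2 libraries of tumor spheroids on a plate coated with polymer X, a polymer surface on which these cells form spheroids, placed at day 8. The sample labels describe serum replacement medium for all 4 libraries, whereas the study's methods describe fetal bovine serum for the maintenance of SKOV3 cells and serum replacement for spheroids, so it is uncertain which medium the TCP cells had. Substrate, culture time and possibly medium changed together and cannot be told apart. The labels do not say whether the 2 libraries of a group came from separate cultures, so the p-values measure only the spread between these libraries. An exact permutation test of 2 against 2 libraries cannot go under p = 0.33.

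Core histones form the spool around which DNA is wound, and H1 binds the DNA that enters and leaves it. Most clustered histone genes are replication-dependent, that is, they are transcribed mainly in S phase, when newly copied DNA needs new histones. Their mRNAs usually end in a conserved stem-loop instead of a poly(A) tail, and SLBP, the stem-loop binding protein, holds this end and is needed for its processing and translation. Some clustered genes also give longer, polyadenylated transcripts, which are known from cells that differentiate or leave the cell cycle. Many replacement histones, encoded by genes outside these clusters, are made throughout the cell cycle from polyadenylated mRNAs. Which genes of the list used below do so was not examined. The libraries were made from mRNA purified with a magnetic mRNA isolation kit, and how much of the RNA of each gene carried a tail was not measured.

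The sequences upstream of 5 genes on which the results turn are shown first. They are the 250 bases before the RefSeq start, on the GRCh38.p14 build, written 5′ to 3′ on the strand of the gene. Capitals mark, on either strand, the CCAAT box, the TATAAA box, the octamer ATTTGCAT typical of H2A and H2B promoters and, in HIST1H1C, the H1 box AAACACA. The 5 genes were chosen after their values were seen. HIST1H2AC (chr6:26123922-26124171, plus strand) and HIST2H2BE (chr1:149886683-149886932, minus strand) were higher on polymer X while the neighbour on the other side of the same promoter region was lower. HIST3H2A (chr1:228457874-228458123, minus strand) was higher, HIST1H3H (chr6:27809801-27810050, plus strand) was lower, and HIST1H1C (chr6:26056471-26056720, minus strand) had the highest level of the clustered histone genes.
HIST1H2AC: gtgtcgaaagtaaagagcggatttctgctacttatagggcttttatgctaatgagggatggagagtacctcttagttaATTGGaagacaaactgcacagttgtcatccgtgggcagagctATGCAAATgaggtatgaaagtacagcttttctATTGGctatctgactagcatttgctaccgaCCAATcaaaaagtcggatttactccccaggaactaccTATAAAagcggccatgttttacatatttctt
HIST2H2BE: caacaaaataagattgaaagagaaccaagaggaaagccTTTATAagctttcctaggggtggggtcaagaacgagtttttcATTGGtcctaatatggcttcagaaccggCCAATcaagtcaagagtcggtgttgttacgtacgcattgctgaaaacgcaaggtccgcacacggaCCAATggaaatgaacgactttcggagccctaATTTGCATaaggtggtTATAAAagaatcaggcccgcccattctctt
HIST3H2A: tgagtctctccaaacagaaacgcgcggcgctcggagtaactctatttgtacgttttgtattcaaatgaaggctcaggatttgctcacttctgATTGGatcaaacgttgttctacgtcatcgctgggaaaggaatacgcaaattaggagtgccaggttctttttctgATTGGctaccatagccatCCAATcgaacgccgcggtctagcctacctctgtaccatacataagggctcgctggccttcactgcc
HIST1H3H: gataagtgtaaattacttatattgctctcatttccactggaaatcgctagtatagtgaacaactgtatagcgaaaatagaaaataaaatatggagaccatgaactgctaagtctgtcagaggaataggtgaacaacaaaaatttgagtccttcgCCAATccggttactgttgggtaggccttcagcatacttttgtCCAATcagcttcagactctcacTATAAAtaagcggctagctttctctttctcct
HIST1H1C: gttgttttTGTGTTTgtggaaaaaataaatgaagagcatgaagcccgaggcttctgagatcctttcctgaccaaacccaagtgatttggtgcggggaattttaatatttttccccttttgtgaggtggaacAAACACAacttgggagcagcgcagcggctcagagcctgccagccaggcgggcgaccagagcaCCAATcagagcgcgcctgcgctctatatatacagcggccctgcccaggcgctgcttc

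A RefSeq promoter of 250 bases before to 50 bases after the start was found for 66 of the 71 genes. CCAAT, on either strand, was in 84.8% of these windows and in 34.6% of all 35116 promoters of the same length. It was in every H1, H2A, H2B and H3 window and in 23.1% of the H4 windows. TATAAA was in 66.7% of the histone windows against 11.5% of all promoters. The octamer ATTTGCAT was in 68.8% of the H2A and 77.8% of the H2B windows, in 7.69% of the H3 windows, in no H1 or H4 window, and in 1.77% of all promoters. The H1 box AAACACA was in 6 of 6 H1 windows and in 5.64% of all promoters. Of the other motifs searched, TTCNNNGAA was in 1.52% of the histone windows against 7.66% of all, the core of the interferon-stimulated response element in 9.09% against 3.57%, TTTGGCGC in 0 against 0.652% and TTTCCCGC in 1.52% against 1.63%. No marked motif overlapped another in the 5 printed sequences, and a match describes letters only. The RefSeq start of 3 genes (HIST1H3E, HIST2H3A and HIST2H2AA4) lay over 100 bases from the start in the deposited annotation. For HIST1H3E, the window is therefore not that of the measured transcript. HIST2H3A and HIST2H2AA4 have the position of their identical copies HIST2H3C and HIST2H2AA3 in the deposited annotation, whereas RefSeq places them elsewhere on the other strand. Their distance is thus one of placement. 

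The letters of the histone stem-loop were found in an annotated transcript (GENCODE, GRCh38) of 32 of the 71 genes, in 6 versions. For HIST1H4D and HIST1H3A, which had no match, the GENCODE transcript nearest in length had 312 and 411 bases. The deposited ones had 365 and 466. An annotated transcript can end before the stem-loop, so a missing match does not show that a gene lacks it. The version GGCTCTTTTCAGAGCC was found in 17 genes, and HIST1H3E was the 1 gene with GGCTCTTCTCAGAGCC. In 23 genes the annotated transcript went on for over 100 bases past the stem-loop, as it does in a longer polyadenylated form. In HIST1H2AC the stem-loop began at base 525 of 1668, and in HIST2H2BE at base 450 of 2194. The deposited values were counted over a short stretch for HIST1H2AC (543 bases) and a long one for HIST2H2BE (2220 bases). Tags of a longer form can also fall on the short stretch, so these values do not tell which form was present. Only 2 of the 71 genes, HIST2H2BE and HIST2H3PS2, had a deposited transcript of over 1000 bases, and the median was 464 bases.

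The deposited values were FPKM, that is, sequenced tags divided by the length of the transcript and by the total of the library. The smallest steps between values put the library totals at 38403000 to 44913000 tags. In a transcript of 500 bases, 3 tags correspond to an FPKM of 0.134 to 0.156. Between 52.1% and 58.9% of low values were even numbers of tags. The difference between the 2 libraries of a group, relative to counting error, was also taken as a mean chi-square. It was 5.10 on TCP (13395 symbols) and 5.82 on polymer X (14059 symbols), more than counting alone gives. The counting intervals given here cover counting error only, so they leave out this spread and are too narrow where it holds. Should part of the tags be read mates, they are narrower still than they should be. The correlation between the 2 libraries of a group was 0.998 on TCP and 0.997 on polymer X. The SKOV3 label was checked against its markers. The epithelial keratin gene KRT8 was between 143 and 269 FPKM in every library and ERBB2, which is amplified in SKOV3, between 198 and 913, and PAX8, an ovarian lineage factor, between 48.8 and 108. The ovarian markers MUC16 and WT1 and the epithelial markers KRT19 and EPCAM were at most 1.39. The summed level of markers of other cells was 25.4 to 25.9 FPKM on TCP and 47.3 to 49.8 on polymer X, most of it from CD68, with CD3E at 0 in every library, VWF at most 0.025 and PTPRC at most 0.53. COL1A1 went the other way, with 8.2 and 8.5 on TCP and 3.8 in each polymer X library. The part of these differences in the results was not tested.

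The clustered histone genes were lowly detected. The median of their mean FPKM was 0.189, against 2.94 over all symbols, and the highest value of any of them in any library was 14.4. There were 9 genes with 0 tags in every library and 47 with at most 10 tags in every library. In 15 genes, 1 library or more reached an FPKM of 1. The test across the whole table, limma on log2(FPKM + 1), covered the 11964 symbols that reached an FPKM of 1 in 2 or more libraries, of which 12 were clustered histone genes. Of these, 4 entered through TCP only, 2 through polymer X only, 5 through both groups and 1, HIST1H4H, through both polymer X libraries and 1 TCP library. A gene that entered through 1 group only had to be higher there.

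A gene was called where its adjusted p was under 0.05 and its log2 fold change was 1 or more in size. In the whole table, 10.7% of symbols were called higher and 9.45% lower on polymer X. Of the 12 histone genes, 4 were called higher (HIST1H3E, HIST1H2AC, HIST1H2BD and HIST3H2A) and 1 lower (HIST1H3H). Without the fold minimum, 6 were higher and 4 lower, against 37.4% and 43.6% of all tested symbols. In the same 10 genes the groups did not overlap, against 41.9% of tested symbols higher and 48.4% lower without overlap. The 4 lower genes were the 4 that entered through TCP only. Among the 6 higher ones, HIST1H3E and HIST2H2BE entered through polymer X only. In these genes the filter fixed the direction and the lack of overlap, so the counts cannot be read against the shares of all symbols. With quantile normalization the calls were 4 higher and 3 lower, with HIST1H2AG and HIST2H2AC added to the lower genes. In a bulk library, fewer cells that make a transcript and less of it per cell cannot be told apart.

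**Figure D1:**
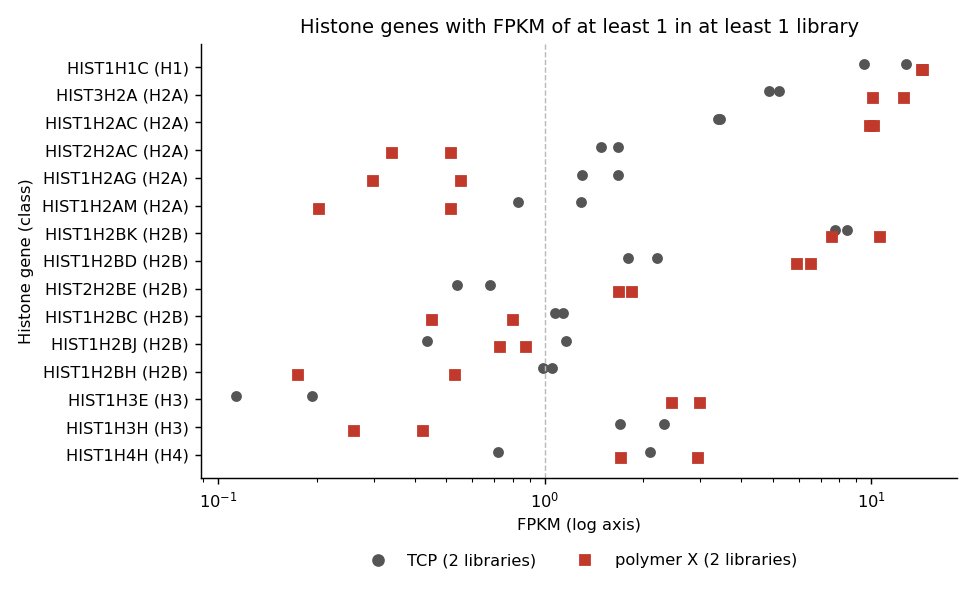
FPKM (log axis) of the 15 clustered histone genes that reached an FPKM of 1 in any library, ordered by class, with a circle for each TCP library and a square for each polymer X library. The groups of HIST1H2AC, HIST1H2BD, HIST3H2A, HIST1H3E and HIST2H2BE lie apart with polymer X on the right, and those of HIST1H3H, HIST1H2AG and HIST2H2AC lie apart with polymer X on the left.

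The linker histone genes were represented almost wholly by HIST1H1C, which encodes H1.2 (chromosome 6, 26055968 to 26056699 of hg19, minus strand). Its FPKM was 12.8 and 9.53 in the TCP libraries and 14.4 and 14.3 in the polymer X libraries. Both spheroid libraries were above both TCP libraries, and the TCP libraries differed more from each other than the spheroid libraries did. The log2 fold change was 0.35 (SE 0.11, adjusted p = 0.014), which missed the fold minimum. The adjusted p rested on each library but TCP replicate 1. It was 0.12 (log2 fold change 0.16) without TCP replicate 2, 0.079 and 0.072 without polymer X replicates 1 and 2, and 0.00016 (log2 fold change 0.55) without TCP replicate 1. In the fit with no filter it was 0.20. HIST1H1E, the H1.4 gene, had 0.599 and 0.854 on TCP and 0.575 and 0.157 on polymer X, and it was under the filter. The tag ratio of HIST1H1E was 0.495 (95% exact interval 0.287 to 0.829) over pooled tags. By library it had 18 and 30 tags on TCP and 18 and 5 on polymer X. Its adjusted p was 0.30 in the limma fit with no filter. HIST1H1T, the testis H1 gene, had 0 tags in all 4 libraries, as did the testis core histone genes HIST1H2AA and HIST1H2BA, where 3 tags would be an FPKM of about 0.134 to 0.156 at 500 bases. HIST1H1C made up 92.1% of the summed H1 FPKM on TCP and 96.6% on polymer X. The sum was 12.1 ± 2.30 (SD, n = 2) on TCP and 14.9 ± 0.458 (SD, n = 2) on polymer X. The other H1 genes together had 0.966 and 0.940 on TCP and 0.768 and 0.251 on polymer X, so most of their difference lay in polymer X replicate 2.

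Among the H2A genes, HIST3H2A and HIST1H2AC were called higher, and no H2A gene was called lower. HIST1H2AC (chromosome 6, 26124373 to 26124918, plus strand) had 3.41 and 3.44 FPKM on TCP and 9.94 and 10.2 on polymer X. The groups were far apart relative to their spread, with 155 tags on TCP and 441 on polymer X. Its log2 fold change was 1.32 (SE 0.07, adjusted p = 1.1e-07), and the tag ratio was 2.94 (2.44 to 3.55). HIST3H2A (chromosome 1, 228645065 to 228645560, minus strand), an H2A gene in the small HIST3 cluster, had 5.23 and 4.88 on TCP and 10.1 and 12.6 on polymer X. Its groups did not overlap, and the log2 fold change was 1.02 (SE 0.10, adjusted p = 6.9e-06). It missed the fold minimum, at 0.98, without TCP replicate 2 and, at 0.88, without polymer X replicate 2.

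The opposite direction was seen in 2 H2A genes that passed the test without reaching the fold minimum. HIST2H2AC (chromosome 1, 149858525 to 149858961, plus strand) had 1.68 and 1.49 on TCP and 0.518 and 0.340 on polymer X, and its log2 fold change was -0.86 (SE 0.10, adjusted p = 2.4e-05). HIST1H2AG had 1.68 and 1.30 on TCP and 0.555 and 0.298 on polymer X, with a log2 fold change of -0.81 (SE 0.11, adjusted p = 0.00013). In both genes every polymer X library lay under every TCP library, and both passed the fold minimum with a pseudocount of 0.1 in place of 1, at -1.69 and -1.63. Both entered the test through TCP only. HIST1H2AM had 1.29 and 0.828 on TCP and 0.516 and 0.203 on polymer X, under the filter, with a tag ratio of 0.344 (0.174 to 0.643). Its adjusted p was 0.11 in the limma fit with no filter. The summed H2A level was 15.7 ± 0.549 (SD, n = 2) on TCP and 24.4 ± 1.55 (SD, n = 2) on polymer X, 1.56-fold higher, and it was 1.23-fold higher without HIST3H2A.

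Among the H2B genes, HIST1H2BD was called higher. HIST1H2BD (chromosome 6, 26158349 to 26158835) had 2.21 and 1.79 FPKM on TCP and 6.55 and 5.94 on polymer X, and its log2 fold change was 1.27 (SE 0.09, adjusted p = 1e-06). Its tag ratio was 3.15 (2.44 to 4.11). The data hold a second, longer transcript of this gene of 809 bases, whose FPKM was 3.19-fold higher, against 3.12-fold for the shorter one. Both transcripts begin at 26158349 and can share tags, so these folds are not independent. HIST2H2BE (chromosome 1, 149856010 to 149858232, minus strand) had 0.540 and 0.682 on TCP and 1.85 and 1.69 on polymer X. Its groups did not overlap, and its log2 fold change of 0.78 (SE 0.09, adjusted p = 2.5e-05) passed the test and missed the fold minimum, which it reached at 1.40 with a pseudocount of 0.1. It was 0.35 with quantile normalization. HIST2H2BE entered the test through polymer X only, so it had to be higher there. HIST2H2BE had 114 tags on TCP and 317 on polymer X over its long transcript, a tag ratio of 2.87 (2.31 to 3.59).

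HIST1H2BK, the H2B gene with the highest level, did not pass the test. It had 8.42 and 7.74 FPKM on TCP and 10.6 and 7.60 on polymer X, so the groups overlapped (log2 fold change 0.14, SE 0.12, adjusted p = 0.31). Without polymer X replicate 2 the log2 fold change of HIST1H2BK was 0.36 (adjusted p = 0.0062). Of its sequence, 22.6% of stretches of 50 bases were shared with another histone gene. HIST1H2BC had 1.14 and 1.07 on TCP and 0.802 and 0.451 on polymer X, and the log2 fold change was -0.38 (SE 0.11, adjusted p = 0.010). It entered the test through TCP only, so it had to be higher there. HIST1H2BJ had 0.436 and 1.16 on TCP and 0.732 and 0.874 on polymer X, with overlapping groups, and HIST1H2BH had 0.987 and 1.05 on TCP and 0.533 and 0.175 on polymer X. The latter pair of genes was under the filter. The summed H2B level was 14.99 ± 0.732 (SD, n = 2) on TCP and 20.5 ± 2.91 (SD, n = 2) on polymer X, and it rested less on HIST1H2BK on polymer X (44.5%) than on TCP (53.9%).

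The H3 genes exchanged their leading member. HIST1H3E (chromosome 6, 26225383 to 26225844) had 0.113 and 0.194 FPKM on TCP and 2.99 and 2.46 on polymer X. That was 2 and 4 tags on TCP and 55 and 46 on polymer X, a tag ratio of 17.4 with a wide interval (7.71 to 48.5). Its log2 fold change of 1.69 (SE 0.10, adjusted p = 2.7e-07) was the largest of the 12 tested histone genes, and it is understated by the pseudocount at these levels. HIST1H3H (chromosome 6, 27777842 to 27778314) had 2.33 and 1.71 on TCP and 0.425 and 0.261 on polymer X, with 42 and 36 tags against 8 and 5. Its groups did not overlap, and its log2 fold change was -1.16 (SE 0.12, adjusted p = 1.1e-05). Neither gene shared a stretch of 50 bases with another histone gene. HIST1H3E entered the test through polymer X only and HIST1H3H through TCP only.

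HIST1H3E was 2.98% of the summed H3 FPKM on TCP and 55.9% on polymer X. The sum itself was 5.15 ± 0.308 (SD, n = 2) on TCP and 4.88 ± 0.835 (SD, n = 2) on polymer X, a difference within the spread between libraries. The other H3 genes together were 5.26 and 4.74 on TCP and 2.48 and 1.82 on polymer X, 2.33-fold lower. Under the filter, HIST1H3D fell from 32 and 38 tags to 11 and 7, a tag ratio of 0.265 (0.149 to 0.451) with an adjusted p of 0.0085 in the limma fit with no filter. HIST1H3D spans HIST1H2AD on the same strand, so tags of the 2 genes may be shared. HIST1H3I had 3 and 10 tags on TCP and 0 on polymer X, with an adjusted p of 0.13 in the limma fit with no filter. It was at least 4.20-fold lower against a floor of 3 tags over the group, but the exact 95% interval of its tag ratio reached up to 0.339, a smaller fold. The same holds for the other genes given against this floor.

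No H4 gene was called, and 1 of 15 was tested. HIST1H4H had 2.10 and 0.718 FPKM on TCP and 2.96 and 1.72 on polymer X, with overlapping groups (log2 fold change 0.51, SE 0.25, adjusted p = 0.089). In both groups replicate 1 was the higher library. With the replicate number as a block the adjusted p of HIST1H4H was 1.5e-05 at the same log2 fold change, still under the fold minimum. The SE in that fit was 0.0943, close to the 0.0940 of HIST1H2AG and the 0.0939 of HIST1H3H. That fit borrows spread across genes, so this adjusted p does not measure the spread of HIST1H4H alone. With 1 library left out its log2 fold change ran from 0.08 (adjusted p = 0.69) without TCP replicate 2 to 0.93 (adjusted p = 0.0005) without TCP replicate 1. The values without polymer X replicates 1 and 2 were 0.24 and 0.78, and that with quantile normalization was 0.18. The H4 sum was 4.49 ± 0.826 (SD, n = 2) on TCP and 4.40 ± 1.03 (SD, n = 2) on polymer X, with HIST1H4H at 31.4% and 53.1% of it. The other H4 genes together were 1.49-fold lower on polymer X. HIST1H4B had 6 and 5 tags on TCP and 0 on polymer X, at least 3.55-fold lower against the floor and with a tag ratio interval up to 0.411. In HIST4, the single gene HIST4H4 had 0.191 and 0.435 on TCP and 0.366 and 0.601 on polymer X, with overlapping groups.

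**Figure D2:**
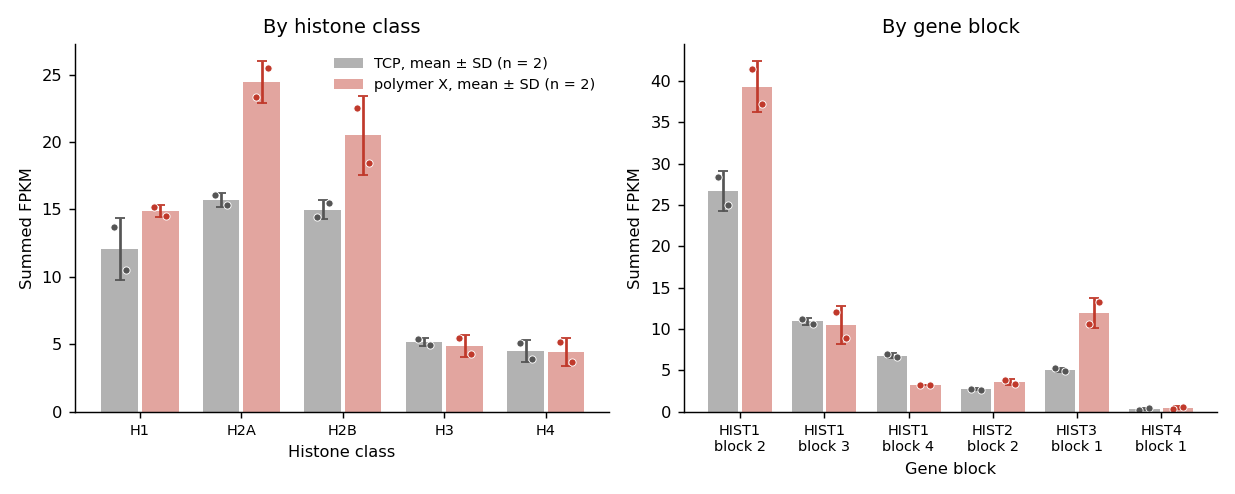
Summed FPKM of the clustered histone genes by class (left) and by gene block (right), with bars for the mean, whiskers for the SD of 2 libraries and points for the libraries. H2A and H2B, HIST1 block 2 and HIST3 are higher on polymer X, HIST1 block 4 is lower, and the groups of H3 and H4 overlap.

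The sum over all clustered histone genes, with identical copies counted once, was 52.4 ± 3.25 (SD, n = 2) on TCP and 69.1 ± 3.67 (SD, n = 2) on polymer X, 1.32-fold higher. The 5 genes with the highest mean (HIST1H1C, HIST1H2BK, HIST3H2A, HIST1H2AC and HIST1H2BD) summed to 29.7 ± 3.27 on TCP and 51.2 ± 0.757 on polymer X (SD, n = 2), which was 56.6% and 74.1% of the whole. The remaining 63 distinct values summed to 22.7 ± 0.0255 on TCP and 17.9 ± 2.92 on polymer X. This split was made after the values were seen and uses the levels of both groups. By TCP level alone, HIST1H3H, at a mean of 2.02 on TCP and 0.343 on polymer X, would take the place of HIST1H2BD, at 2.00 and 6.25. Class sums rest on the scaling, and with quantile normalization the log2 ratio of the H3 sum went from -0.08 to -0.77 and that of the H4 sum from -0.03 to -0.81.

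Most clustered histone genes were too low to be tested one by one. Of the 59 under the filter, 50 had at least 1 tag, and among these the groups did not overlap with polymer X higher in 6 and lower in 18. That was 12% and 36% of the 50, whereas of all 4919 symbols under the filter with at least 1 tag, 43.2% were higher and 12.1% lower. The 95% counting interval of the tag ratio lay above 1 in 6 of the 59 and below 1 in 14. The identical copies HIST2H2AA3 and HIST2H2AA4 are 2 of the former. These intervals leave out the spread between libraries beyond counting. The 56 distinct values under the filter summed to 14.4 ± 1.73 on TCP and 9.23 ± 0.887 on polymer X (SD, n = 2), 1.56-fold lower. The 7 with an adjusted p under 0.05 and a lower level in the limma fit with no filter were HIST1H4B, HIST1H3C, HIST1H4C, HIST1H4D, HIST1H3D, HIST1H2BG and HIST1H2AH. The 3 with a higher level were HIST1H2BN, HIST2H2BF and HIST3H3. In that fit 24.9% of all symbols were lower and 25.5% higher without a fold minimum, and none of these 10 genes reached the fold minimum, which 6.6% of all symbols passed as higher and 5.8% as lower.

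Sums were also taken along the chromosome. Members were divided into blocks where neighbours lay over 200 kb apart on hg19. HIST1 block 1, with the testis genes HIST1H2AA and HIST1H2BA, had no tags. HIST1 block 2 (chromosome 6, 26017260 to 26285727, 32 genes) held HIST1H1C, HIST1H2AC, HIST1H2BD and HIST1H3E, and its sum was 26.6 ± 2.41 on TCP and 39.3 ± 3.05 on polymer X (SD, n = 2). By gene, the groups did not overlap in 16 of its 32 genes, with polymer X higher in 4 and lower in 12. Of all symbols with at least 1 tag, 42.3% were higher and 37.8% lower without overlap. These 4 higher genes are the ones just named. HIST1 block 4 (27775257 to 27861669, 16 genes) summed to 6.79 ± 0.257 on TCP and 3.20 ± 0.00636 on polymer X, 2.12-fold lower, with 1 gene higher and 7 lower. Without HIST1H3H it was still 1.67-fold lower. With quantile normalization the log2 ratio went from -1.08 to -1.97 for block 4 and from 0.56 to 0.35 for block 2. No test compared the blocks. HIST1 block 3 (27100095 to 27115341, 5 genes) was 10.9 ± 0.401 on TCP and 10.5 ± 2.27 on polymer X, and without HIST1H2BK it was 2.07-fold lower. HFE, the iron regulator gene, was the only tested gene of another kind within the HIST1 blocks, at a log2 fold change of 0.12 (adjusted p = 0.17).

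In HIST3, on chromosome 1, HIST3H2A was called higher, as described above, and the other genes of the cluster had few tags. HIST3H3, a testis H3 gene, had 0 tags in both TCP libraries and 7 and 6 on polymer X (FPKM 0.365 and 0.308), at least 4.47-fold higher against the floor of 3 tags over the group, with a tag ratio interval that began at 3.15. Its adjusted p was 0.0048 in the limma fit with no filter. HIST3H2BB, the H2B gene beside HIST3H2A, had 0 tags on TCP and 2 and 6 on polymer X, at least 2.75-fold higher against the floor, with a tag ratio interval that began at 1.76 and an adjusted p of 0.15. The HIST3 sum was 5.05 ± 0.249 on TCP and 11.9 ± 1.87 on polymer X (SD, n = 2), 2.36-fold higher, and HIST3H2A was 95.3% of it on polymer X. HIST2 summed to 2.69 ± 0.107 on TCP and 3.62 ± 0.398 on polymer X, a log2 ratio of 0.43, and HIST2H2BE carried it. Without HIST2H2BE the log2 ratio was -0.17, and with quantile normalization it was -0.32. The HIST4 ratio also turned from 0.63 to -0.41 with quantile normalization.

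**Figure D3:**
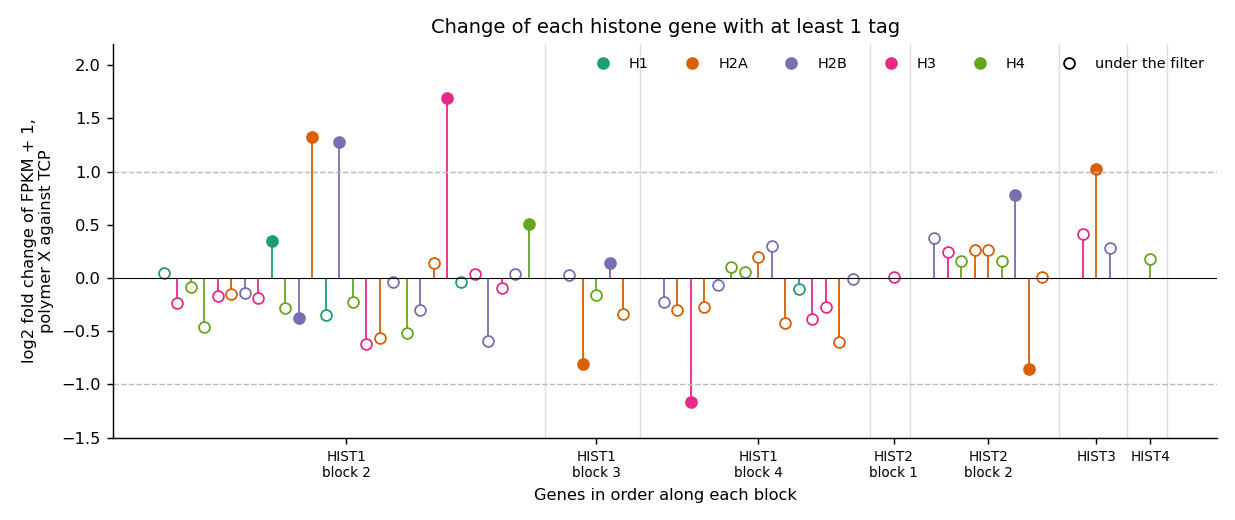
Log2 fold change of FPKM + 1 (polymer X against TCP, fit with no filter) of each clustered histone gene with at least 1 tag, in order along each block and colored by class, with open circles for genes under the filter and dashed lines at the fold minimum. HIST1H3E reaches 1.69, HIST1H2AC 1.32 and HIST1H2BD 1.27 in HIST1 block 2, and HIST1H3H reaches -1.16 in HIST1 block 4, while most genes around them lie between the dashed lines.

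H2A and H2B genes often lie head to head and share the region between them as a promoter. There were 12 such pairs, with 223 to 346 bases between the starts, a grouping made after the values were seen. In 2 pairs the members moved in opposite directions without overlap. Of all symbols with at least 1 tag, 42.3% were higher and 37.8% lower without overlap. How often unrelated genes would form such opposite pairs was not tested. HIST1H2AC was 2.94-fold higher and HIST1H2BC, 240 bases away, was 1.76-fold lower. HIST2H2BE was 2.90-fold higher and HIST2H2AC, 292 bases away, was 3.69-fold lower. HIST1H2AC was called, and the other 3 genes reached an adjusted p under 0.05 without the fold minimum. These 3 entered the test only through the group where they were high, so their calls do not bear on the opposite directions. HIST1H2BC is the weakest of them, with an adjusted p of 0.053 (log2 fold change -0.22) without polymer X replicate 2 and of 0.13 in the fit with no filter. The log2 fold changes within a pair lay 1.70 and -1.64 apart (H2A minus H2B), and this difference was not tested. HIST3H2A and HIST3H2BB were both higher. In the other pairs at least 1 member overlapped between groups, or both were at 0. HIST1H2AE and HIST1H2BG lay 275 bases apart, and HIST1H2BG had 10 tags on TCP and 1 on polymer X while HIST1H2AE had 20 and 26.

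The promoter windows of 11 pairs were available for both members and shared 253 to 293 of their bases. The octamer ATTTGCAT was in the windows of 8 pairs, including both pairs with opposite directions, as seen in the sequences of HIST1H2AC and HIST2H2BE above. It was not found in the windows of HIST3H2A and HIST3H2BB, of HIST1H2AK and HIST1H2BN or of HIST1H2AI and HIST1H2BL. Tags were counted without regard to strand, but the members of these pairs do not overlap in the deposited annotation. For HIST2H2AC, 30.5% of stretches of 50 bases were shared with another histone gene, against 8.11% for HIST2H2BE and 0.495% for HIST1H2AC. These shares are over GENCODE transcripts of 390, 2194 and 1462 bases and so are not alike. HIST1H2AC was counted over 543 bases, so its share does not describe the stretch that was counted.

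**Figure D4:**
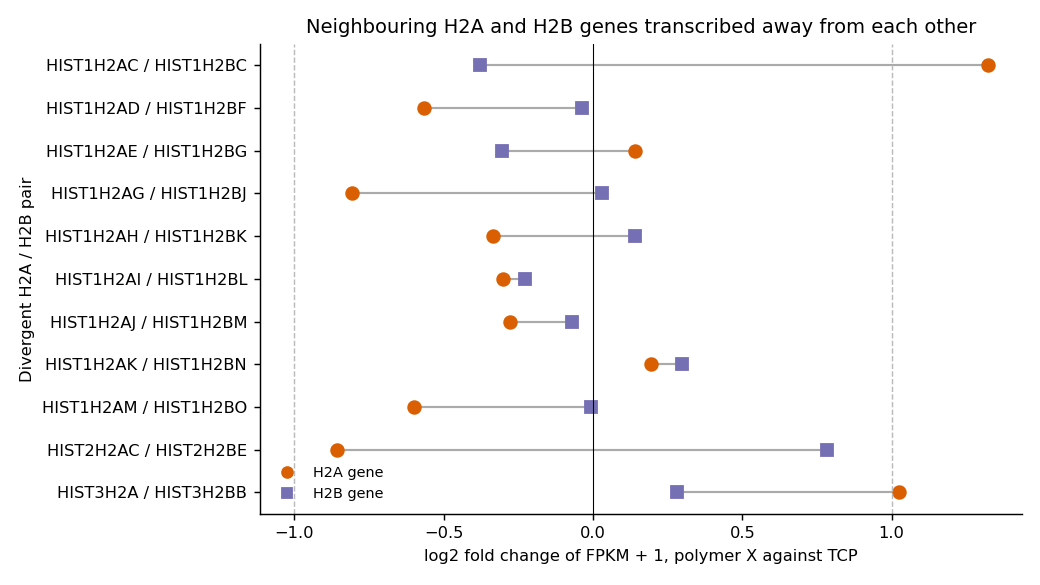
Log2 fold change of FPKM + 1 (polymer X against TCP, fit with no filter) of the H2A gene (circle) and the H2B gene (square) of each of 11 head-to-head pairs with at least 1 tag, with dashed lines at the fold minimum. The symbols of HIST1H2AC and HIST1H2BC, and of HIST2H2AC and HIST2H2BE, lie far apart on either side of 0.

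The genes that act on or beside clustered histones were taken from fixed lists and read from the same fit, where the median log2 fold change of all tested symbols was -0.06. The 13 S phase genes, given because clustered histones are made in S phase, were all called lower, with a median of -1.91. MKI67, the proliferation marker, was at -2.61 (adjusted p = 4.7e-09), CDC6, a replication licensing factor, at -2.40 (3.8e-09), CCNA2, cyclin A2, at -2.32 (2e-09) and MCM5, a replicative helicase subunit, at -2.13 (1.2e-08). The higher clustered histone genes moved against the direction of every gene of that list, and the lower ones with it, and the part of the S phase genes in either was not tested.

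Of 28 tested genes for histone transcription and 3′ end processing, 7 were called lower and 1 higher, with a median of -0.84. SLBP had 32.4 and 33.1 FPKM on TCP and 17.8 and 15.9 on polymer X, and the log2 fold change was -0.92 (SE 0.07, adjusted p = 1.2e-06), which missed the fold minimum. NPAT, the coactivator of clustered histone genes that cyclin E and CDK2 activate, was at 3.40 and 3.29 on TCP and 2.85 and 2.86 on polymer X (log2 fold change -0.17, adjusted p = 0.053), and at -0.37 (adjusted p = 0.0014) with quantile normalization. CASP8AP2, a further factor for histone gene transcription, was at -0.61 (adjusted p = 0.00019). The genes called lower with the largest changes were SNRPB at -1.37 and SNRPF at -1.36, subunits of the Sm ring of small nuclear ribonucleoproteins, and SNRPG at -1.19, which lost the call at -0.93 with quantile normalization, where 5 genes of the list were called lower. CTIF, a translation factor of the cap-binding complex known to act with SLBP, was called higher at 1.18 (adjusted p = 2.2e-07).

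Of 11 tested replacement histone genes, 5 were called lower and none higher, with a median of -0.56, and 3 were higher with an adjusted p under 0.05 and no fold minimum. The log2 fold change was -2.26 for CENPA, the centromeric H3, -1.58 for H2AFX, which marks DNA breaks when phosphorylated, -1.40 for H2AFV and -1.38 for H2AFZ, which encode H2A.Z proteins. H2AFZ was at 378 and 346 FPKM on TCP and 143 and 134 on polymer X, per length far above any clustered H2A gene. Purified mRNA was sequenced, and how much clustered H2A mRNA carried a poly(A) tail was not measured. The FPKM values therefore do not compare the amounts of these mRNAs in the cells. The H3.3 genes were at 0.32 for H3F3A (adjusted p = 0.001) and -0.18 for H3F3B (adjusted p = 0.031). Of 27 tested chaperone genes, 15 were called lower and 1 higher, with a median of -1.02. HJURP, the chaperone of CENPA, was at -2.06, OIP5 and MIS18A, which act at the centromere with it, were at -1.92 and -1.82, and DNAJC9 was at -1.81, whereas ATRX, which helps place H3.3, was higher at 1.10 (adjusted p = 4.1e-07).

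**Figure D5:**
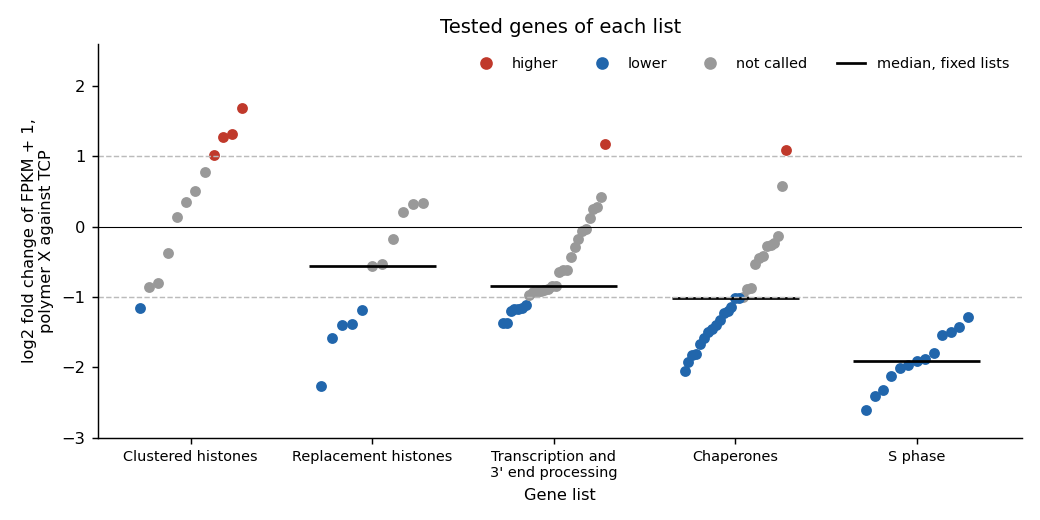
Log2 fold change of FPKM + 1 (polymer X against TCP) of each tested gene of the clustered histones and of 4 lists, with red and blue points for genes called higher and lower, grey for the others, dashed lines at the fold minimum and a black line for the median of each of the 4 lists. All 13 S phase genes lie at or under -1, whereas the 12 clustered histone genes run from -1.16 to 1.69.

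Sequence shared between histone genes limits some values. No stretch of 50 bases was shared with another histone gene or pseudogene in 35 of the 71 genes, and over 10% of stretches were shared in 21. The pairs HIST2H2AA3 and HIST2H2AA4, HIST2H3A and HIST2H3C, and HIST2H4A and HIST2H4B, which are identical copies, had the same values in every library, so there were 68 distinct values. Of the 5 called genes, HIST1H3E, HIST3H2A and HIST1H3H shared none and HIST1H2AC shared 0.495%, whereas HIST1H2BD shared 9.84%. The share of HIST1H2AC is over a GENCODE transcript of 1462 bases, longer than the 543 bases over which it was counted. The longer deposited transcript of HIST1H2BK spans HIST1H4I, and its FPKM was 1.34-fold higher against 1.13-fold for the shorter one.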

How the data were processed

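RNA-seq of 2 TCP and 2 polymer X libraries of SKOV3 cells was used. The FPKM values of 50078 RefSeq transcripts of hg19 are those the authors deposited. They were made with HOMER from tags on exons of both strands. The submitters' processing notes also name STAR 2.4.0 and DESeq, without a role. Other settings are not given in the sources used here. For each of 19475 symbols, only the transcript highest in mean FPKM was kept, and 10500 symbols had several. Of the 71 members, 3 had 2 transcripts.

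The test was limma 3.58.1 in R 4.3.3 (lmFit, eBayes with trend, Benjamini-Hochberg over all tested symbols) on log2(FPKM + 1), for symbols that reached an FPKM of 1 in 2 or more libraries. The threshold was an adjusted p of 0.05 and a log2 change of 1 up or down. A fold change on this scale understates that of low genes. Sums by class and block had no test. Whole tags were recovered from FPKM times length, and every low value used (100%) was a whole number to within 0.1. Tag ratios have exact 95% binomial intervals over the pooled tags of each group, without the spread between libraries. The step size gives 1 depth per library, and no count model was run on these tags.

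Replicate numbers were not treated as pairs in the main test. The deviations of same-numbered libraries from their group means had a correlation of 0.0927 over 11964 symbols, which cannot exclude a pairing. Alternatives were a pseudocount of 0.1, no filter, a minimum mean FPKM of 5, quantile normalization, median scaling, a replicate block, sums of transcripts, no variance trend, other fold minimums, sums without the highest member, and each library left out. The procedure was tested on simulated data. Named genes were those that reached an FPKM of 1 in any library, those called or highest in each class, HIST3, HIST4 and testis members, and the 4 called genes of each list with the largest changes, plus SLBP, NPAT and CASP8AP2. Further genes were named with their values in view. The members and lists were chosen with earlier results of these data known. Promoters came from RefSeq (GRCh38.p14) and transcripts for stem-loops and shared stretches from GENCODE (GRCh38), matched by identifier or symbol. Stem-loops and shared stretches were searched after the values were seen. Protein sequences were not analysed here. Plots were drawn with matplotlib 3.10.9.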

Additional observations from a re-analysis of the deposited data

How the results depend on the processing

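Counts of calls held in most settings. Class and cluster sums moved by over 1 SD in 13 cases, all with quantile normalization or without the highest member. Some of these changed sign, and some H3 and H4 sums changed sign within 1 SD. For the counts and sums that answer the comparisons, 178 values under an alternative kept their direction and their side of the threshold (or moved within 1 SD or 1.5 times), whereas 13 sums moved, 9 counts were larger and 10 were smaller. Of the clustered histone genes, 4 were called higher and 1 lower. Called higher were 2 with a minimum mean FPKM of 5 and 0 with a log2 fold minimum of 2. Called lower were 3 with a pseudocount of 0.1, 3 with quantile normalization, 4 with no fold minimum, 0 with a minimum mean FPKM of 5 and 0 with a log2 fold minimum of 2. The mean filter left 4 histone genes tested, so its lower counts follow from the fewer genes. With 1 library left out, 3 to 4 were called higher and 1 to 1 lower. A lone library was assumed to vary like the other group.

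Without the member with the highest mean, the log2 ratio of the class sums was -0.90 for H1, 0.29 for H2A, 0.72 for H2B, -1.22 for H3 and -0.58 for H4, and that of HIST2 was -0.17. HIST4 holds 1 gene and HIST3 has no other gene with tags on TCP, so neither gave a value. With quantile normalization the log2 ratio was 0.41 for H2A, 0.20 for H2B, -0.77 for H3, -0.81 for H4, 0.010 for HIST1, -0.32 for HIST2 and -0.41 for HIST4. The cause was not tested. With 1 library left out, the log2 ratio ranged from 0.12 to 0.51 for H1, 0.57 to 0.70 for H2A, 0.30 to 0.59 for H2B, -0.27 to 0.09 for H3, -0.29 to 0.19 for H4, 0.15 to 0.36 for HIST1, 0.31 to 0.54 for HIST2, 1.07 to 1.39 for HIST3 and 0.15 to 1.34 for HIST4.

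With no fold minimum, replacement histones had 3 higher and 8 lower, the transcription and processing list 4 and 20, and chaperones 2 and 24. With a log2 fold minimum of 2, these lists had 1, 0 and 1 lower, the latter 2 lists had 0 higher, and 5 S phase genes were lower. With 1 library left out, lower calls were 5 to 5 for replacement histones, 6 to 9 for transcription and processing, 13 to 16 for chaperones and 13 to 13 for S phase genes.

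The replicate number as a block gave 4 clustered histone genes higher and 1 lower, and the counts of the 4 lists did not change either. The labels give same-numbered samples only a number in common. With 2 pairs, the correlation of 0.0927 cannot exclude that they shared a culture or preparation. Scaling to a common median moved the median log2 fold change of all genes from -0.06 to -0.02. Of the genes under the filter, 9 had no tags in any library, and depth limits what can be said of those with few.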
